A study of Caenorhabditis elegans with 20 samples.

Results

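The antimicrobial peptide and saposin-like effector genes of *C. elegans* were taken as all genes of the deposited count table whose WormBase symbol begins with *spp-*, *cnc-*, *abf-*, *ilys-*, *fip-* or *fipr-*. The table holds 82 such genes among 22736, and 36 of the 82 reached a mean of 20 counts over the 20 libraries. These were 17 of 29 *spp* genes, 7 of 26 *fipr* genes, 6 of 11 *cnc* genes, 3 of 6 *fip* genes, 2 of 5 *ilys* genes and 1 of 5 *abf* genes. *cnc-5* and *spp-7* had no count in any library.

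The libraries were Cel-seq2 RNA libraries, which count reads near the 3′ end of transcripts, made from gravid adult bodies without embryos. *Δdhgd-1* mutants, *dhgd-1(tm6671)*, carry a deletion in the gene for D-2-hydroxyglutarate dehydrogenase and were backcrossed to N2, which served as wild type. Each strain was raised on NGM plates with *E. coli* OP50, with 64 nM adenosylcobalamin (vitamin B12) or without it, and each of the 4 groups had 5 biological replicates, numbered 1, 2, 5, 6 and 7. The 4 groups were *Δdhgd-1* mutants with vitamin B12, wild type with vitamin B12, *Δdhgd-1* mutants without it and wild type without it. All strains had been maintained on plates with the same dose of vitamin B12 before the experimental plates, so the groups without it came from cultures that had received it. The mutation is present in every tissue, and the bodies hold all somatic tissues together with the gonad.

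*C. elegans* has no circulating immune cells, and its epidermis, intestine and pharynx make secreted effectors against microbes. Saposin-like proteins (*spp*) are related to the pore-forming amoebapores, and several are made in the intestine, where ingested bacteria arrive. Invertebrate-type lysozymes (*ilys*) cut bacterial cell walls, ABF peptides resemble defensins, and caenacins (*cnc*) and the fungus-induced peptides (*fip*, *fipr*) are short secreted peptides known mainly from the epidermal response to fungal infection.

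Library totals ranged from 2837943 to 15457950 counts, with a median of 10564242.5. Replicates 1 and 2 of each group carry library names beginning with olga and replicates 5, 6 and 7 names beginning with s, and every test below was fitted with this library series as a term. *dhgd-1* itself had 72 to 264 counts in supplemented mutants and 23 to 102 in supplemented wild type, and 200 to 459 in mutants and 99 to 228 in wild type without the supplement. The deletion lies in the 5′ end of the gene, and Cel-seq2 reads come from near the 3′ end. Read positions were not available, so these counts were not used to check the genotype. *acdh-1*, a gene repressed by vitamin B12, had 14.5 to 112 CPM (counts scaled by the library total) in supplemented mutants and 5.82 to 30.2 CPM in supplemented wild type, against 214 to 428 CPM in mutants and 193 to 373 CPM in wild type without it.

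A few members supplied most of the signal. The 82 genes took 0.174% to 0.430% of the counts of a library, and the 6 genes of highest mean made up 62.7% to 80.6% of that share. These were the only members with a mean over 100 CPM, and 42 members had a mean under 1 CPM. Because the reads come from transcript ends, CPM were not divided by gene length when members were ordered by level.

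**Figure D1:**
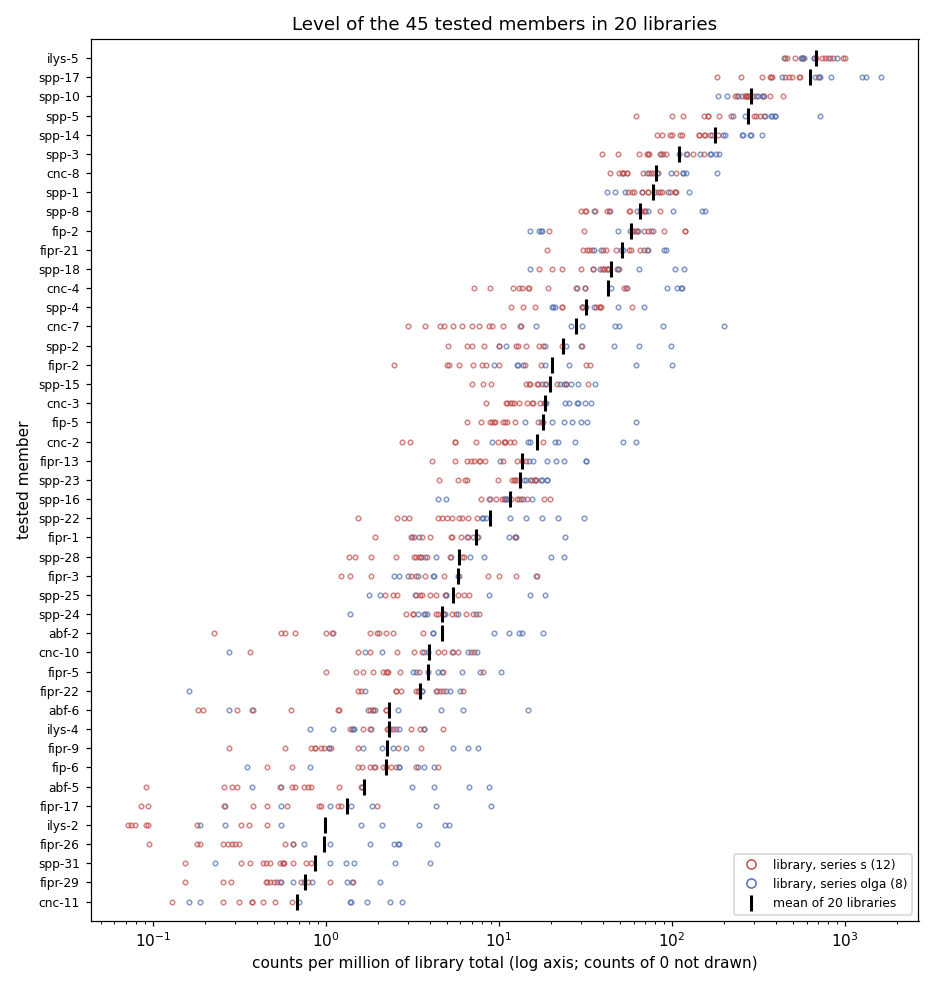
CPM (log axis) of the 45 members that passed the filter on low counts, in order of their mean over 20 libraries; each circle is 1 library, coloured by library series, and the bar is the mean. Levels span from 678 CPM for *ilys-5* to under 1 CPM, and for many members the circles of series olga lie to the right of those of series s.

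The most abundant member was *ilys-5*, a lysozyme gene, with a mean of 678 CPM, followed by *spp-17*, a saposin-like gene, with 632 CPM. *ilys-5* was at 896, 568, 737, 975 and 848 CPM in supplemented mutants (replicates 1, 2, 5, 6 and 7) and at 814, 580.0, 802, 1007 and 763 CPM in supplemented wild type. Without vitamin B12 it was at 659.8, 554, 448, 512 and 461 CPM in mutants and at 666, 446, 575, 683 and 562 CPM in wild type. The supplemented libraries were the higher ones, but the ranges overlapped in both strains. *spp-17* varied far more between libraries of a group, with 834, 1613, 449.6, 331 and 377 CPM in mutants and 436, 718, 494, 181 and 370.0 CPM in wild type without the supplement. Its levels overlapped those of *ilys-5* in every group, so the order of these 2 genes was not larger than their spread. With vitamin B12, *spp-17* was at 708, 1260, 478, 375 and 540.3 CPM in mutants and at 669.9, 1315, 694, 251 and 547 CPM in wild type.

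*spp-10*, the prosaposin-type gene of the family, whose relatives serve lysosomal lipid breakdown, followed with a mean of 286 CPM. It averaged 279.7 ± 58.7 CPM in supplemented mutants and 313 ± 73.1 CPM in supplemented wild type, against 275 ± 32.99 CPM in mutants and 274 ± 71.7 CPM in wild type without the supplement (SD, n = 5 each). Its 4 fitted log2 differences lay between -0.21 and 0.16. *spp-5*, which encodes a saposin-like protein with antibacterial activity, had a mean of 277 CPM, *spp-14*, another saposin-like gene, 176 CPM and *spp-3*, a neighbour of *spp-5*, 111 CPM. *spp-14* averaged 208 ± 61.8 CPM in supplemented mutants and 198 ± 79.7 CPM in supplemented wild type, against 161 ± 99.1 CPM in mutants and 139 ± 42.3 CPM in wild type without it (SD, n = 5 each). *spp-3* averaged 129 ± 40.3 CPM in supplemented mutants and 135 ± 40.1 CPM in supplemented wild type, against 98.5 ± 56.2 CPM in mutants and 80.3 ± 26.6 CPM in wild type without it (SD, n = 5 each). Neither gene passed the test in any comparison.

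Summed over all 82 members, supplemented libraries had a median of 2977 CPM in mutants and 3136 CPM in wild type, against 2141.5 CPM in mutants and 2276 CPM in wild type without vitamin B12. The ranges overlapped, from 2611 to 4195 CPM in supplemented mutants against 1806 to 4298 CPM in mutants without it, and from 2369 to 3651 CPM in supplemented wild type against 1738 to 3068 CPM in wild type without it. In whole bodies, fewer cells of a tissue and less RNA per cell cannot be told apart, and this holds for every difference given here.

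Tests used edgeR's quasi-likelihood fit on all 11270 genes that passed its filter on low counts, with Benjamini-Hochberg adjustment over all of them, and 45 members were among them. These were 18 *spp*, 11 *fipr*, 7 *cnc*, 3 *abf*, 3 *fip* and 3 *ilys* genes. Calling a gene required an adjusted p under 0.05 together with a fold change over 1.5, which is 0.585 on the log2 scale. The 37 members that were not tested all had a mean under 20 counts, the highest being *spp-19* with 5.45 counts and *abf-1* with 4.75 counts. Levels also differed between the library series, which a test added after seeing the data measured with group as a term. In series s against series olga, 25 of 45 tested members were called lower and 1, *fip-2*, higher, where 20.0% of all tested genes were lower and 18.9% higher.

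**Figure D2:**
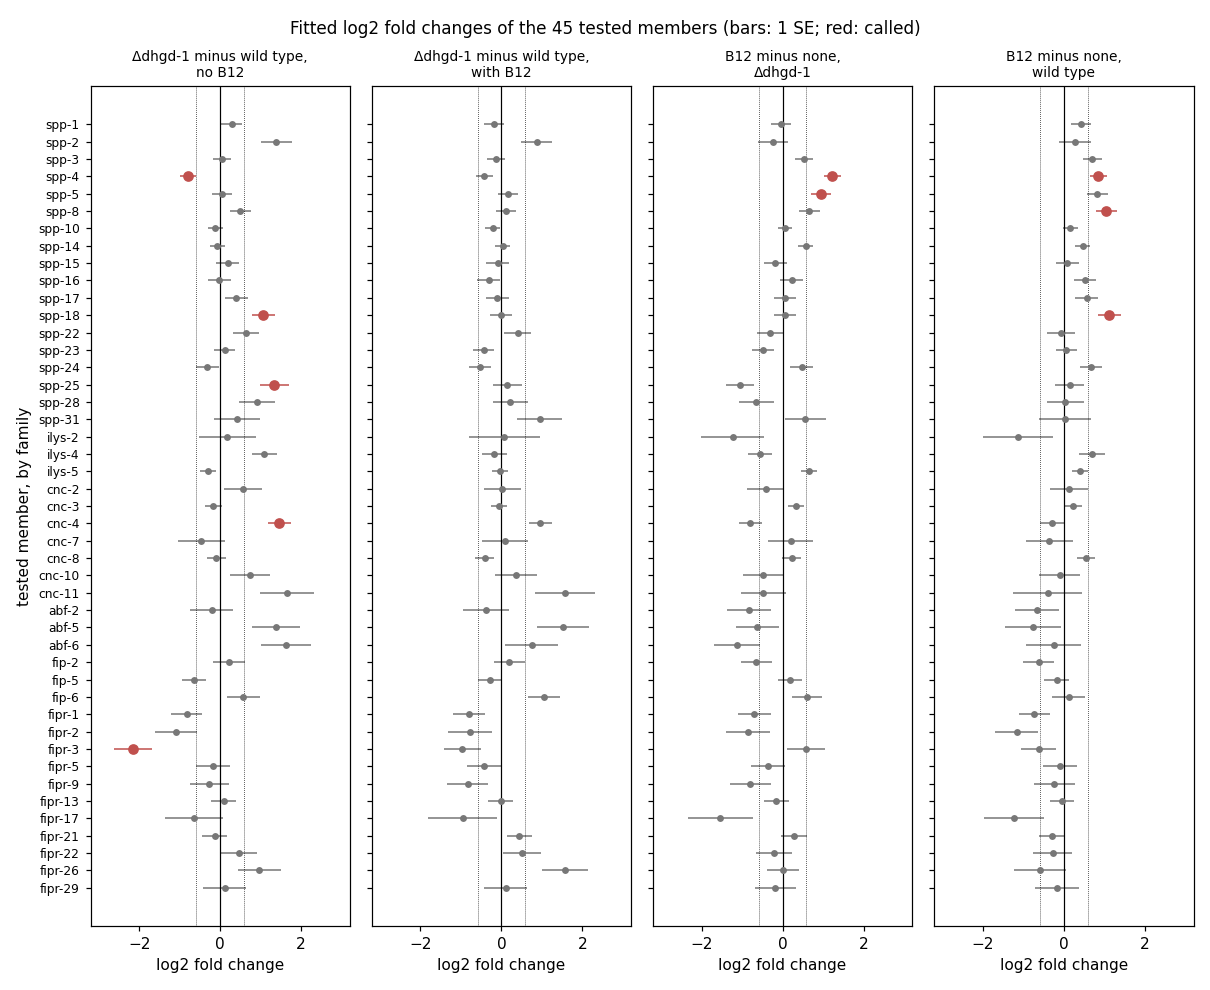
Fitted log2 fold changes of the 45 tested members in the 4 comparisons, with bars of 1 standard error and dotted lines at a fold of 1.5; red points were called and grey points were not. Called members number 5, 0, 2 and 3 from left to right, and in the wild type panel 17 of 18 *spp* genes lie to the right of 0 and all 11 *fipr* genes to its left.

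The first comparison asked how loss of *dhgd-1* changed the members on plates without vitamin B12. The caenacin gene *cnc-4* and the saposin-like genes *spp-25* and *spp-18* were higher in *Δdhgd-1* mutants, and the fungus-induced peptide gene *fipr-3* and the saposin-like gene *spp-4* were lower. That is 3 of 45 members called higher, where 1.82% of all tested genes were, and 2 of 45 called lower, where 0.994% of all tested genes were. The members' median log2 fold change was 0.11, against -0.03 over all tested genes. Of the 45, 27 were positive, where 46.8% of all tested genes were. With scaling by library totals in place of TMM factors, the median of all genes shifted to 0.10, and the share of calls over all genes that were higher was 79.0% against 64.7%.

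*cnc-4* was at 115, 108, 54.1, 31.4 and 53.1 CPM in *Δdhgd-1* mutants (replicates 1, 2, 5, 6 and 7), against 28.2, 44.5, 12.03, 19.2 and 14.7 CPM in wild type. The mutant was higher in 5 of 5 same-numbered pairs, and within each library series the groups did not overlap, although the pooled ranges did. The fitted log2 fold change was 1.46 with a standard error of 0.29 (edgeR adjusted p = 0.00466). Within series olga it was 1.57 and within series s 1.46, neither past the threshold on its own, and the call was kept in all 10 fits that left out 1 library. A further fit without all 4 libraries of replicate 1, added after seeing the data, kept it too (adjusted p = 0.0143). The call was lost without the library series term, where the log2 fold change was 1.46 (edgeR adjusted p = 0.402).

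*spp-25* had a low level, with a mean of 46.3 counts a library. It was at 15.2, 18.4, 6.72, 4.91 and 6.27 CPM in mutants, against 1.77, 3.29, 2.58, 2.44 and 5.77 CPM in wild type, so that only the wild type replicate 7 reached into the mutant range. The log2 fold change was 1.33 with a standard error of 0.36 (edgeR adjusted p = 0.0418), and the size differed between series, at 2.71 within olga and 0.61 within s. The call was kept without mutant replicate 6 or wild type replicate 7 and lost without any of the other 8 libraries (edgeR adjusted p from 0.00788 to 0.154 over the 10 fits), and without all 4 libraries of replicate 1 the adjusted p was 0.259.

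*spp-18* was at 105, 48.9, 40.3, 35.1 and 39.4 CPM in mutants, against 35.1, 15.1, 17.1, 20.2 and 23.1 CPM in wild type. Mutants were higher in 5 of 5 pairs, and the ranges touched at 35.1 CPM, where the lowest mutant library met the highest wild type library, replicate 1. The log2 fold change was 1.06 with a standard error of 0.29 (edgeR adjusted p = 0.0425), 1.53 within olga and 0.81 within s. The call was kept without mutant replicate 2 and lost without any of the other 9 libraries (edgeR adjusted p from 0.0401 to 0.179), while without all 4 libraries of replicate 1 the adjusted p was 0.0209.

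*fipr-3* was the member with the largest fitted decrease, at 5.84, 2.99, 1.37, 1.82 and 1.23 CPM in mutants against 16.4, 2.47, 10.02, 8.70 and 12.6 CPM in wild type. It was lower in 4 of 5 pairs, replicate 2 being the exception, and in series s every mutant library was below every wild type library. The log2 fold change was -2.15 with a standard error of 0.47 (edgeR adjusted p = 0.00941), -1.18 within olga and -2.94 within s, and without wild type replicate 1 the adjusted p was 0.0832, and 0.0101 without all 4 libraries of replicate 1. The gene (X:14423405-14423883, WBcel235) lies opposite *F23D12.11*, which was also called lower, by -0.90 (edgeR adjusted p = 0.0207). The use of strand in counting is not given in the sources used here, so how far reads of 1 gene were counted for the other is not known.

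*spp-4* was at 20.6, 21.1, 16.1, 13.7 and 11.7 CPM in mutants, against 31.7, 20.3, 23.1, 23.2 and 30.1 CPM in wild type. Mutants were lower in 4 of 5 pairs, and the ranges overlapped only through replicate 2. The log2 fold change was -0.79 with a standard error of 0.21 (edgeR adjusted p = 0.0363), -0.39 within olga and -0.99 within s. The call was kept only without mutant replicate 2 or wild type replicate 2 (edgeR adjusted p from 0.0205 to 0.155 over the 10 fits). It was lost without all 4 libraries of replicate 1 (adjusted p = 0.133) and with library totals, at -0.66 and an adjusted p of 0.110.

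When replicate number replaced library series in the model, as a block, 8 members were called in this comparison against 5. Over all 11270 genes the calls then rose as well, to 448 higher and 179 lower, against 205 higher and 112 lower. The 3 added were *spp-2*, a neighbour of *spp-4*, at 1.45 (edgeR adjusted p = 0.00249), the defensin-like gene *abf-6* at 1.94 (adjusted p = 0.0100) and the lysozyme gene *ilys-4* at 1.04 (adjusted p = 0.0301). Without the block these had adjusted p-values of 0.0529, 0.186 and 0.0626. *spp-2* was also called by DESeq2 (adjusted p = 0.0154), in the 10 libraries fitted alone (edgeR adjusted p = 0.00896) and with library totals (adjusted p = 0.0354), and *ilys-4* with library totals (adjusted p = 0.0428). *ilys-4* was the one whose groups did not overlap, at 2.64, 3.68, 4.77, 2.37 and 3.1 CPM in mutants against 0.805, 1.10, 1.43, 1.37 and 2.29 CPM in wild type. It lies opposite *atic-1*, a gene with a mean of 68.8 CPM that differed by 0.145 here (edgeR adjusted p = 0.843). As for *fipr-3*, how far reads of 1 overlapping gene were counted for the other is not known. *spp-2* was at 64.3, 46.2, 30.04, 18.1 and 17.0 CPM in mutants against 29.8, 10.98, 5.06, 6.57 and 9.97 CPM in wild type, with overlap only through wild type replicate 1. Without wild type replicate 1, *spp-2* was called (edgeR adjusted p = 0.0393), and so was the caenacin gene *cnc-2* at 1.46 (adjusted p = 0.0497). Likewise *abf-6* was called without wild type replicate 7 (adjusted p = 0.0327) and *ilys-4* without mutant replicate 6 (adjusted p = 0.0427).

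**Figure D3:**
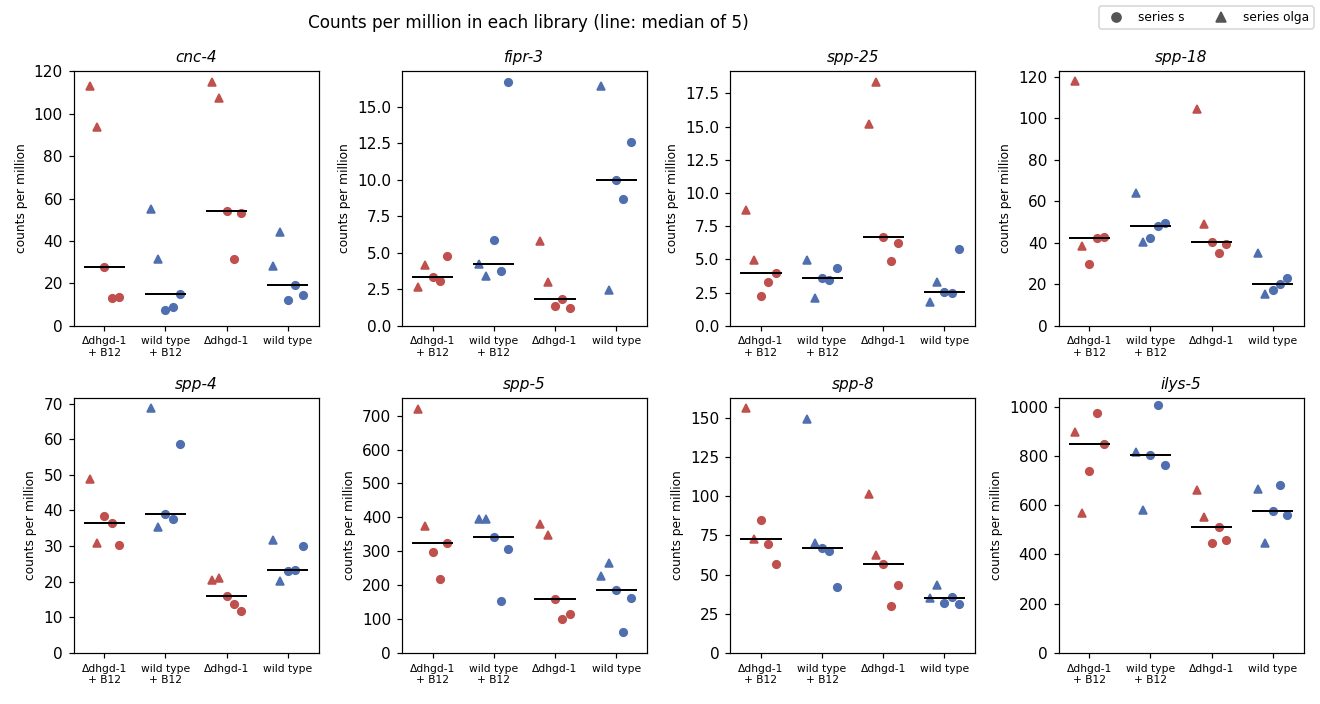
CPM of the 7 called members and of *ilys-5* in each library, on linear axes from 0; triangles are series olga, circles series s, red the mutant, blue wild type, and the line is the median of 5 libraries. *spp-4* lies higher in both supplemented groups than in either group without vitamin B12, apart from an overlap of supplemented mutants with unsupplemented wild type, and *cnc-4* is highest in mutant libraries of series olga.

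On plates with vitamin B12, none of the 45 members was called between *Δdhgd-1* mutants and wild type, where 0.346% of all tested genes were called higher and 0.204% lower. DESeq2 also called none, and 7 of 45 members had an unadjusted edgeR p under 0.05, where 6.79% of all tested genes did. *cnc-4* came closest, at 113.2, 93.6, 27.7, 13.1 and 13.5 CPM in supplemented mutants against 55.3, 31.6, 7.22, 8.90 and 14.9 CPM in supplemented wild type. The groups overlapped, 4 of 5 pairs were higher in mutants, and the log2 fold change was 0.96 with a standard error of 0.29 (edgeR adjusted p = 0.246). *spp-25* differed by 0.15 and *spp-18* by -0.01, with standard errors of 0.36 and 0.28, *fipr-3* by -0.96 (standard error 0.45) and *spp-4* by -0.42 (standard error 0.20). Supplemented mutant and wild type libraries of *spp-18* ran from 29.8 to 118 CPM and from 40.5 to 64.1 CPM.

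Vitamin B12 was then compared with no supplement within *Δdhgd-1* mutants. The neighbouring saposin-like genes *spp-4* and *spp-5* rose and no member fell, which is 2 of 45 called higher and 0 of 45 called lower, where 0.843% of all tested genes were called higher and 1.02% lower. The members' median was -0.18, against 0.01 over all tested genes, and 20 of the 45 were positive, where 51.4% of all tested genes were. The mutant libraries without vitamin B12 also enter the first comparison, so the values of *spp-4* in the 2 comparisons rest in part on the same libraries.

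*spp-4* was at 48.8, 30.8, 38.5, 36.4 and 30.3 CPM in supplemented mutants, against 20.6, 21.1, 16.1, 13.7 and 11.7 CPM in mutants without vitamin B12. The groups did not overlap. The log2 fold change was 1.22 with a standard error of 0.21 (edgeR adjusted p = 0.000955), 0.92 within olga and 1.40 within s, and the call was kept in all 10 fits that left out 1 library. *spp-5* was at 719, 373, 299, 219 and 324 CPM in supplemented mutants, against 381, 347, 161, 101 and 115 CPM in mutants without it. The groups overlapped through series olga, where the log2 fold change was 0.57, and not in series s, where it was 1.21. Over all libraries it was 0.95 with a standard error of 0.25 (edgeR adjusted p = 0.0471). The *spp-5* call was kept without unsupplemented mutant replicate 1 or supplemented mutant replicate 2 and lost without any of the other 8 libraries (edgeR adjusted p from 0.0244 to 0.163). Without all 4 libraries of replicate 1 the adjusted p was 0.00735 for *spp-4* and 0.162 for *spp-5*.

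*ilys-5* and *spp-25* did not pass in this comparison. *ilys-5* differed by 0.65 with a standard error of 0.20 and was higher with vitamin B12 in 5 of 5 pairs (edgeR adjusted p = 0.114, and 0.0119 with the replicate block). *spp-25* was at 8.75, 4.95, 2.21, 3.30 and 3.98 CPM in supplemented mutants, lower in 5 of 5 pairs than without it, by -1.04 with a standard error of 0.34 (edgeR adjusted p = 0.160, and 0.0361 when the 10 libraries were fitted alone). *cnc-4* was likewise lower in 5 of 5 pairs, by -0.79 with a standard error of 0.29 (adjusted p = 0.234).

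In wild type, vitamin B12 raised 3 saposin-like genes, *spp-4*, *spp-8* and *spp-18*, and lowered no member. The counts are 3 of 45 called higher, where 0.772% of all tested genes were, and 0 of 45 called lower, where 0.674% were. The members' median was 0.03 against -0.03 over all tested genes, but the families lay apart. Over all tested genes 45.7% were positive. Of 18 tested *spp* genes, 17 were positive with a median of 0.45. All 11 *fipr* genes were negative with a median of -0.30. They ranged from -1.23 for *fipr-17* (standard error 0.74) to -0.05 for *fipr-13* (standard error 0.30). The 3 *abf* genes were negative too, from -0.77 to -0.25. In mutants 11 of the 18 *spp* genes were positive, with a median of 0.06, and 3 of the 11 *fipr* genes, with a median of -0.22. The 3 *abf* genes were negative in mutants as well, from -1.12 to -0.62. Over all tested genes 51.4% were positive in mutants. These are fitted values of genes that share libraries and neighbouring loci, and most *spp* genes did not pass the test singly. No *fipr* or *abf* gene passed the main test in either strain. In wild type the lowest edgeR adjusted p was 0.539 among *fipr* genes and 0.951 among *abf* genes. *abf-5*, with the lowest *abf* value in wild type, was near the floor. It was at 0 to 0.751 CPM with vitamin B12 and 0.305 to 1.61 CPM without it. A fall of either family as a whole was not tested.

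*spp-4* was at 68.7, 35.4, 39.0, 37.7 and 58.8 CPM in supplemented wild type, against 31.7, 20.3, 23.1, 23.2 and 30.1 CPM in wild type without vitamin B12, with no overlap. Its log2 fold change was 0.85 with a standard error of 0.21 (edgeR adjusted p = 0.0329), 1.02 within olga and 0.76 within s. It was kept without wild type replicate 1 or 7 or supplemented wild type replicate 2 or 5, and lost without any of the other 6 libraries (edgeR adjusted p from 0.0122 to 0.132), and also lost without all 4 libraries of replicate 1 (adjusted p = 0.117).

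*spp-8* was at 149, 70.2, 66.9, 65.2 and 42.3 CPM in supplemented wild type, against 35.3, 43.6, 31.9, 35.7 and 31.4 CPM in wild type without it. The ranges overlapped only between supplemented replicate 7 and unsupplemented replicate 2. Its log2 fold change was 1.05 with a standard error of 0.26 (edgeR adjusted p = 0.0403), 1.52 within olga and 0.78 within s. It was kept without wild type replicate 6 or supplemented wild type replicate 2 or 7, and lost without any of the other 7 libraries (edgeR adjusted p from 0.0109 to 0.143), and also lost without all 4 libraries of replicate 1 (adjusted p = 0.167).

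*spp-18* was at 64.1, 40.5, 42.5, 48.2 and 49.4 CPM in supplemented wild type, against 35.1, 15.1, 17.1, 20.2 and 23.1 CPM in wild type without it, with no overlap. It differed on the log2 scale by 1.13 with a standard error of 0.29 (edgeR adjusted p = 0.0451), 1.07 within olga and 1.17 within s. Without all 4 libraries of replicate 1 the adjusted p was 0.00243. The call was kept without wild type replicate 1 or supplemented wild type replicate 2 and lost without any of the other 8 libraries (adjusted p from 0.0236 to 0.126). The same unsupplemented wild type libraries are the baseline of the mutant comparison, in which *spp-18* was also called, so the 2 calls share their lower group.

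With the replicate block, 5 members were called in wild type against 3, the added ones being *spp-5* at 0.85 (edgeR adjusted p = 0.0126) and *spp-3* at 0.72 (adjusted p = 0.0420). Calls over all 11270 genes were then 160 higher and 111 lower, against 87 higher and 76 lower. *spp-5* was at 396, 396, 341, 152 and 308 CPM in supplemented wild type, against 226, 265, 186, 62.3 and 161 CPM in wild type without it, higher in 5 of 5 pairs with overlapping ranges. Without wild type replicate 5, *spp-5* (adjusted p = 0.0487) and *spp-3* (adjusted p = 0.0496) were called as well. *fipr-2*, a fungus-induced peptide gene with a fitted difference of -1.17, was called lower when supplemented wild type replicate 7 was left out (adjusted p = 0.0153).

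Whether vitamin B12 acted differently in the 2 strains was tested with an interaction term. No member was called, where 0.0444% of all tested genes were, and DESeq2 also called none, while 3 of 45 members had an unadjusted edgeR p under 0.05, where 4.09% of all tested genes did, a share near that of the members. These were *ilys-4* at -1.27 (standard error 0.44), *spp-25* at -1.18 (standard error 0.50) and *spp-18* at -1.07 (standard error 0.40), with adjusted p-values of 0.806, 0.999 and 0.907. *spp-18* differed with vitamin B12 by 0.06 in mutants and 1.13 in wild type, but at this spread the difference between strains did not pass over all genes. For *spp-4* the interaction was 0.38 with a standard error of 0.29, and for *spp-5* 0.12 with a standard error of 0.35.

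Many members lie side by side in the genome. By the WBcel235 annotation, 52 of the 82 fall into 18 groups in which each gene starts within 10 kb of the end of the one before it. The build used by the authors is not given in the sources used here, so positions are those of the annotation. *spp-3*, *spp-2*, *spp-6*, *spp-4* and *spp-5* span 5.39 kb of chromosome X (X:7314969-7320354), and *cnc-11*, *cnc-1*, *cnc-5*, *cnc-4*, *cnc-3* and *cnc-2* span 7.84 kb of chromosome V (V:1442342-1450183). Neighbours of one family can be similar in sequence, and how reads shared by similar genes were counted is likewise not given.

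**Figure D4:**
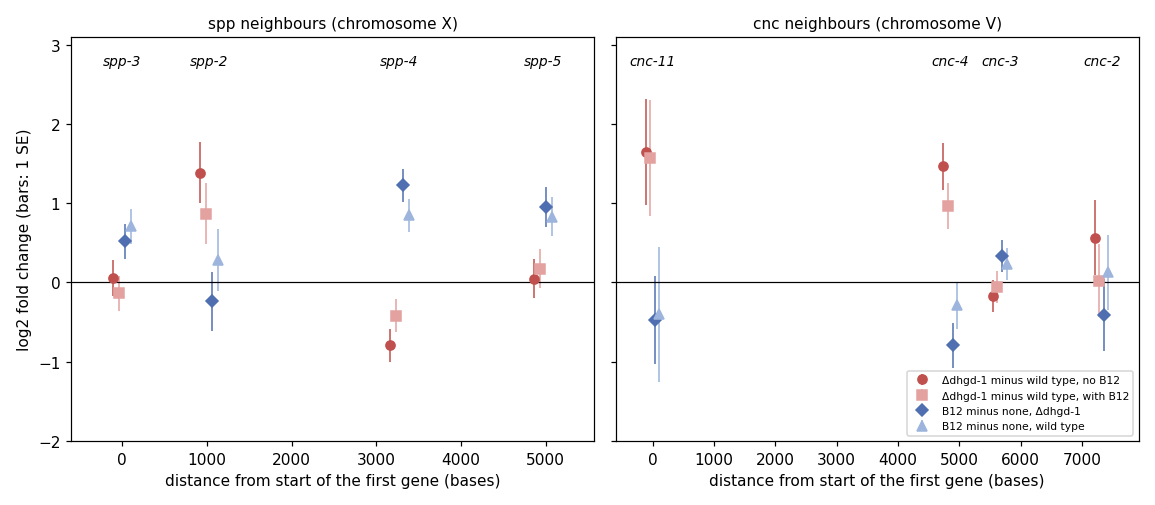
Fitted log2 fold changes, with bars of 1 standard error, of the tested genes of the *spp* group on chromosome X and the *cnc* group on chromosome V, placed by the distance of their start from that of the first gene in bases. On X the vitamin B12 values (diamonds and triangles) of *spp-3*, *spp-4* and *spp-5* lie above 0, and the mutant values (circles and squares) lie above 0 for *spp-2* and below 0 for *spp-4*; on V *cnc-4* stands above its neighbour *cnc-3* in both mutant comparisons and below it in both vitamin B12 comparisons.

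Within the X group, *spp-4* and *spp-2*, with *spp-6* between them, had opposite signs in mutants against wild type without vitamin B12, at -0.79 and 1.39. With vitamin B12 in mutants, *spp-3* differed by 0.52, *spp-2* by -0.24, *spp-4* by 1.22 and *spp-5* by 0.95, and in wild type by 0.71, 0.28, 0.85 and 0.83. *spp-6* had a mean of 1.85 counts and was not tested. Within the V group, *cnc-4* was at 1.46, *cnc-3* at -0.17, *cnc-2* at 0.57 and *cnc-11* at 1.64 in the first comparison, the last with a mean of 4.55 counts and a standard error of 0.67. Differences between neighbouring genes were not tested. On chromosome IV, *spp-8* lies beside *spp-10* (IV:8477180-8483621), and in supplemented against unsupplemented wild type they differed by 1.05 and 0.16. *spp-25* (I:9748517-9749921), *spp-18* (IV:9593712-9594413) and *ilys-5* (X:6533490-6536840) have no member within that distance.

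The remaining tested members gave no call under the main test. Of the other caenacin genes, *cnc-8* was the most abundant with a mean of 81.4 CPM and differed by 0.22 with vitamin B12 in mutants and by 0.54 in wild type. *fipr-21*, which lies between *fip-5* and *cnc-8* on chromosome X, had a mean of 51.6 CPM. *cnc-7* showed how far 1 library can stand apart, with 46.8, 30.3, 9.17, 7.64 and 6.99 CPM in mutants against 199.6, 13.2, 3.72, 4.58 and 4.83 CPM in wild type without the supplement. The neighbours *fipr-1* and *fipr-2* had negative values in all 4 comparisons, from -0.83 to -0.70 and from -1.17 to -0.77. *fip-6* and *fipr-26*, also neighbours, were higher in mutants in 5 of 5 supplemented pairs, by 1.05 and 1.56 (edgeR adjusted p = 0.5002 and 0.485).

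A list of immune signalling genes was read by the same test, and whether they regulate the members was not tested. Of 37 genes in immune signalling, which include the p38 MAP kinase, TGF-β and epidermal damage pathways, 36 were tested. Only *tir-1*, the TIR-domain adaptor upstream of the p38 kinase PMK-1, was called. This was 1 of 36 in mutants against wild type without vitamin B12, where 1.82% of all tested genes were called higher and 0.994% lower. The share is near that over all genes and does not set the list apart. *tir-1* was at 50.8, 34, 29.97, 14.5 and 23 CPM in mutants, against 10.6, 24.1, 12.3, 6.41 and 8.70 CPM in wild type without vitamin B12, a log2 fold change of 1.16 with a standard error of 0.27 (edgeR adjusted p = 0.0146). Mutants were higher in every pair, with overlap through wild type replicate 2. In the other comparisons and in the interaction no gene of this list was called, and its medians were 0.19 in the first comparison, 0.10 with vitamin B12, and -0.16 and -0.13 for vitamin B12 in mutants and wild type.

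Of 20 tested infection-response genes outside the 6 families, 6 were higher and none lower in mutants against wild type without vitamin B12. Over all tested genes 1.82% were called higher and 0.994% lower. Like the other lists, this one was chosen with earlier results of these data known, so its counts describe it and are not an independent test. They include the epidermal antimicrobial peptide genes *nlp-29* at 0.96 (edgeR adjusted p = 0.0196) and *nlp-31* at 1.07 (adjusted p = 0.0217), and *irg-2*, *dod-22*, *thn-2* and *scl-2* at 0.88 to 2.45. With vitamin B12 none was called between the strains. Vitamin B12 raised 5 of the 20 in mutants, *irg-4*, *irg-5*, *sysm-1*, *dod-24* and *gst-38*, where 0.843% of all tested genes were called higher. In wild type it raised 7, *irg-3*, *irg-4*, *irg-5*, *sysm-1*, *nlp-28*, *scl-2* and *gst-38*, where 0.772% of all tested genes were called higher. It lowered none in either strain, where 1.02% of all tested genes in mutants and 0.674% in wild type were called lower. *irg-4*, an infection-response gene of the intestine, was at 18.96, 19.03, 34.9, 38.1 and 39.8 CPM in supplemented mutants, against 4.59, 3.91, 5.49, 5.82 and 6.06 CPM in mutants without it (2.55, adjusted p = 4.94e-07). In wild type it was at 17.6, 16.4, 51.9, 63.8 and 66.8 CPM with vitamin B12, against 2.09, 3.02, 11.4, 5.65 and 11.4 CPM without it (2.63, adjusted p = 2.38e-07), and in neither strain did the groups overlap. This list's median was 0.79 in the first comparison, 0.47 for vitamin B12 in mutants and 1.11 in wild type.

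Tissue markers were measured beside these groups. In mutants against wild type without vitamin B12, 1 of 12 intestinal markers (*cpr-1*, 1.46) and 1 of 11 pharyngeal markers (*phat-3*, 2.23) were higher, and 1 of 6 epidermal markers (*grd-3*, -1.25) was lower. Over all tested genes 1.82% were called higher and 0.994% lower in this comparison. No coelomocyte, sperm, germline or embryo marker of 4, 6, 15 and 2 tested was called. The summed pharyngeal level ran from 148 to 916 CPM in mutants and from 155 to 398 CPM in wild type, the intestinal from 2501 to 4840 CPM and from 2070 to 3152 CPM, and the epidermal from 389 to 446 CPM and from 347 to 863 CPM. Medians in mutants and wild type were 237 and 246 CPM for the pharyngeal sum, 2950 and 2382 CPM for the intestinal and 435 and 506 CPM for the epidermal. With vitamin B12, *cpr-1* fell (-1.29) and *mtl-2* (1.31) and *grd-3* (1.05) rose in mutants, where 0.843% of all tested genes were called higher and 1.02% lower. No marker was called in wild type or between supplemented strains. In wild type all 11 pharyngeal markers had negative values with vitamin B12 (median -0.75), as had all 6 tested sperm markers (median -0.95). The *fipr* and *abf* genes were negative in the same comparison, and none of them was called. The summed pharyngeal level in wild type was 68.4 to 232 CPM with vitamin B12, against 155 to 398 CPM without it. In mutants the pharyngeal median was -0.76, close to that in wild type, with 3 of 11 positive. The sperm median in mutants was 0.07, with 3 of 6 positive. Sperm markers were near the floor, with a sum of 0.845 to 16.6 CPM in supplemented wild type. Every marker found in the table had counts. The part of these markers in the members' differences was not tested.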

How the data were processed

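The authors deposited a table of whole-number read counts per gene for 20 libraries. Per the labels and the study's methods, Cel-seq2 reads were demultiplexed, trimmed with Trimmomatic 0.32, aligned with STAR and counted with ESAT, with pseudogenes discarded. The genome build, the use of strand and of molecular identifiers are not given in the sources used here. Of the identifiers, 22497 matched a symbol of the WBcel235 annotation and 239 did not.

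Groups came from the sample labels. The study names 2 sequencers, one for 2 replicates and one for 3, and the library names (olga, s) were taken to mark them, which the labels do not state. Counts were scaled with TMM and filtered with filterByExpr. In R 4.3.3, edgeR 4.0.16 (limma 3.58.1) fitted group and library series with glmQLFit and glmQLFTest across all genes; DESeq2 1.42.0 was an alternative. Figures used Python 3.11.15 and matplotlib 3.10.9. Library totals of 2837943 to 15457950 set the counting precision.

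The members called in any comparison and the 6 of highest mean CPM were named, with any member called only under an alternative. The members and lists were chosen with earlier results of these data known. Same-numbered libraries deviated together from their group means (correlations from 0.197 to 0.730 over 5 pairs per comparison, and from 0.100 to 0.672 within library series), so a replicate block was fitted beside the main model. The pairing comes from this check, and the labels do not state what a number marks. Alternatives were other scalings, filters, fold minimums, the batch term, the libraries fitted and each library left out in turn. No sequence is shown.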

Additional observations from a re-analysis of the deposited data

Results flagged for a closer look

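Each of the 12 members described singly was checked in the 4 groups of 5 libraries for a highest or lowest library far from the rest, 48 checks in all. Chance gives about 1 in 20 for normal values of a single population, which CPM pooled over both library series need not follow. The called members among them were also chosen by their values. In all 5 were found, 4 of them in libraries of replicate 1.

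*spp-18* had 118 CPM in supplemented *Δdhgd-1* mutant replicate 1, where the next library was at 42.8 CPM, and 105 CPM in unsupplemented mutant replicate 1, where the next was at 48.9 CPM. *spp-8* had 156 CPM in supplemented mutant replicate 1, with 85.0 CPM next, and 149 CPM in supplemented wild type replicate 1, with 70.2 CPM next. *fipr-3* had 16.7 CPM in supplemented wild type replicate 7, with 5.87 CPM next.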

How the results depend on the processing

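Members called in mutants against wild type without vitamin B12 numbered 5, and 9 with no filter on low counts (adding *abf-3*, *abf-6*, *fipr-2*, *ilys-3* and *spp-2* and losing *spp-4*), 8 with the replicate block, 1 without the library series term (*fipr-3*), 1 within series olga and 2 within series s. Between supplemented strains 0 were called, and 3 without the filter (*cnc-4*, *spp-2* and *abf-3*). For vitamin B12 in mutants the count was 2, and 4 without the filter (adding *spp-12* and *spp-25*), 0 within olga, and 1 each with library totals, a mean of 20 counts, no series term, series s alone, a fold over 2 or no replicate 1 libraries. For vitamin B12 in wild type it was 3, and 5 with no filter or with the replicate block, 0 without the series term or within olga, and 1 within series s, in the 10 libraries alone or without replicate 1 libraries. The last of these, without all 4 libraries of replicate 1, was chosen after seeing the data.

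Leaving out 1 library gave 2 to 4 calls in the first comparison, 1 to 2 for vitamin B12 in mutants and 0 to 3 in wild type. The interaction gave 0 in every setting. Signs reversed for *cnc-2* within series olga, at -0.46 against 0.57, and for *spp-28* within series s, at -0.24 against 0.91, neither called with all libraries. *spp-28* was called within olga (2.39) and *cnc-2* within s (1.70). The causes were not tested. Beside the results given above, the replicate block changed only the call of *ilys-5* for vitamin B12 in mutants (3 members against 2). Standard errors in the first comparison were 0.67 for *cnc-11* (mean 4.55 counts), 0.31 for *ilys-4* (22.65 counts) and 0.20 for *cnc-3* (148.8 counts).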

Other observations

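The test of library series s against series olga, added after seeing the data, spread the members widely. The log2 differences of *ilys-2*, *cnc-7*, *fipr-26* and *abf-2* were -3.69, -2.87, -2.71 and -2.59, and that of *fip-2* was 1.03. *spp-4*, *ilys-5* and *fipr-3* differed by -0.16, 0.18 and 0.03 (edgeR adjusted p = 0.375, 0.326 and 0.951).

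The check for a library far from its group was also run on all 45 tested members, 180 cases, of which 33 were past the critical value and 32 were high values. Replicate 1 held 25 of them, with 9 in unsupplemented wild type, 8 in supplemented mutants, 6 in supplemented wild type and 2 in unsupplemented mutants. In wild type replicate 1 the 9 were *abf-2*, *cnc-2*, *cnc-7*, *fip-5*, *fipr-2*, *fipr-9*, *fipr-17*, *ilys-2* and *spp-2*, with *fipr-2* at 100.4 CPM where the next library was at 33.7 CPM. The library had 6207485 counts, and members share a library, so the cases are not independent.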
